A study of Zea mays with 9 samples.

Results

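The regions described here are 730 solitary, low-pileup binding sites of the maize transcription factor ZmbZIP60. They lay toward the ends of the 10 chromosomes and were drawn from 3042 peaks listed for that factor. They were chosen by measured values and by position. A member lay on chromosomes 1 to 10, had a pileup under 30, had no other ZmbZIP60 peak within 10000 bp, and had its summit in the first or last 25% of its chromosome. Pileup is the number of pull-down tags, each extended to 200 bp, that cover the summit. The members made up 29.3% of the 2489 ZmbZIP60 peaks on chromosomes. Chromosome length was taken as the largest listed peak end. On 4 chromosomes that end belonged to a member, so the true ends lie at or beyond the ends used here.

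The study used chromatin immunoprecipitation and sequencing (ChIP-seq) of protoplasts made from leaves of B73, an inbred line of maize. The cells carried GFP-ZmbZIP60 (3 libraries), GFP-ZmbZIP17 (3 libraries) or, as the reference, the GFP vector alone (3 libraries), and an antibody to GFP was used for the pull-down in every group. In all groups, per the labels, germination was for 2 days at 30 °C and growth for 7 days at 23 °C, with light given as 70 micromol. The labels give tunicamycin in DMSO, 5 mg per ml, as the seedling treatment of all groups. That unit was not checked against any other source and may be a slip, and no untreated group is part of these comparisons. The factors were introduced into protoplasts as tagged transgenes, and sites of the untagged protein were not measured. The titles end both factor names with a C that they do not explain, and another label field calls ZmbZIP17 bZIP91.

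In plants, bZIP60 is the transcription factor made active when the endoplasmic reticulum (ER) stress sensor IRE1 splices its mRNA. It belongs to the basic leucine zipper family, whose members bind DNA as dimers at sites with an ACGT core, and it is known for raising ER chaperones and other folding genes when unfolded proteins build up. Tunicamycin causes that stress by blocking N-glycosylation. Maize chromosomes carry most of their genes toward the ends, while the stretches around the centromeres are rich in retrotransposons. No genome or annotation of the build used in the peak lists was used here, so genes, motifs and sequences at the sites were not analysed.

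Each list was called on libraries merged within a group, so no value has a replicate spread. After filtering, 18726110 tags remained for the ZmbZIP60 pull-down, 126318506 for the ZmbZIP17 pull-down and 47193255 for the vector control. The name of the merged ZmbZIP60 input carries the numbers 1 and 3, and whether replicate 2 entered is not stated. Fold enrichment, −log10 p and −log10 q are the authors' values for each peak. Control background is given in unscaled tags over 200 bp, recovered from the deposited fold, and 1 control tag weighs 0.397 of a pull-down tag after depth scaling. Coordinates are 1-based on version 4 of the B73 genome, as the names of unplaced contigs in the files show.

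The members thinned out steadily from the chromosome ends inward. Counted in steps of 5% of chromosome length from the nearest end, with both ends joined, there were 207 in the outermost step, 177 in the next, then 146, 111 and 89. Isolated sites of the same low pileup in the central parts continued at a low level, with 81 in the step from 25 to 30% and 43 in the innermost step. In density this was 0.988 sites per Mb in the outermost 5% and 0.425 per Mb between 20 and 25%, against 0.205 per Mb in the innermost step. Isolated peaks with a pileup of 30 or more were also densest in the outermost step, with 0.296 per Mb, against 0.205 in the innermost. Outer and central parts hold equal lengths by construction, and 730 of the 1039 isolated low-pileup sites (70.3%, 95% exact interval 67.4 to 73.0) were outer ones while 309 were central. Position is part of the rule, so this share is a description and was not tested. Gene density and the mappability of reads along the chromosomes were not measured, and their part in the gradient was not tested.

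**Figure D1:**
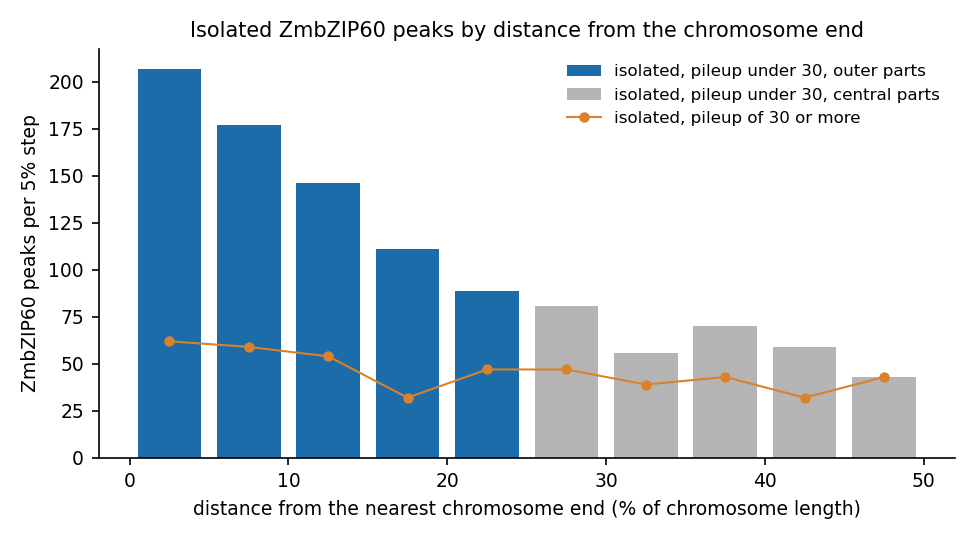
Number of isolated ZmbZIP60 peaks (y axis, count) in steps of 5% of chromosome length from the nearest end (x axis). Blue bars are the 730 outer low-pileup sites, which go down stepwise to 89 in the last outer step, and grey bars are the 309 central low-pileup sites. The orange line is the isolated peaks with a pileup of 30 or more. It is also highest at the ends, with 62 in the outermost step, then 59 and 54, and lies between 32 and 47 further in.

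Every chromosome had more outer than central isolated low-pileup sites, with an outer share between 63.8% on chromosome 4 and 78.0% on chromosome 2. Chromosome 1 held the most members and chromosome 10 the fewest, 46. Per Mb of outer sequence, chromosome 5 was the densest with 0.822 members and chromosome 4 the sparsest with 0.486. The exact interval of the outer share was 53.3 to 73.5% on chromosome 4 and 69.7 to 85.0% on chromosome 2, so these intervals overlap.

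The ends of a chromosome were not alike. The end parts (the last 25% of each chromosome) held 448 members together and the start parts (the first 25%) 282. The central isolated low-pileup sites leaned the same way in every 5% step, so this was not particular to the members. Between 25 and 30% from an end, 26 central sites lay nearer the start and 55 nearer the end. In the innermost step these counts were 16 and 27. On 8 of the 10 chromosomes the end part held more, and chromosomes 1 and 2 had the opposite order, with 72 members in the start part and 51 in the end part of chromosome 1 and 54 and 42 on chromosome 2. The contrast was widest on chromosome 7, where the end part held 48 members and the start part 9. That start part had 0.198 members per Mb, fewer than the 0.318 isolated low-pileup sites per Mb in the central part of the same chromosome. The start part of chromosome 10, with 11 members and 0.291 per Mb, was close to the central density of its chromosome, 0.278. The densest of the 20 outer parts were the end parts of chromosome 6 with 1.08 members per Mb, chromosome 5 with 1.07, chromosome 7 with 1.05 and chromosome 3 with 1.03.

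**Figure D2:**
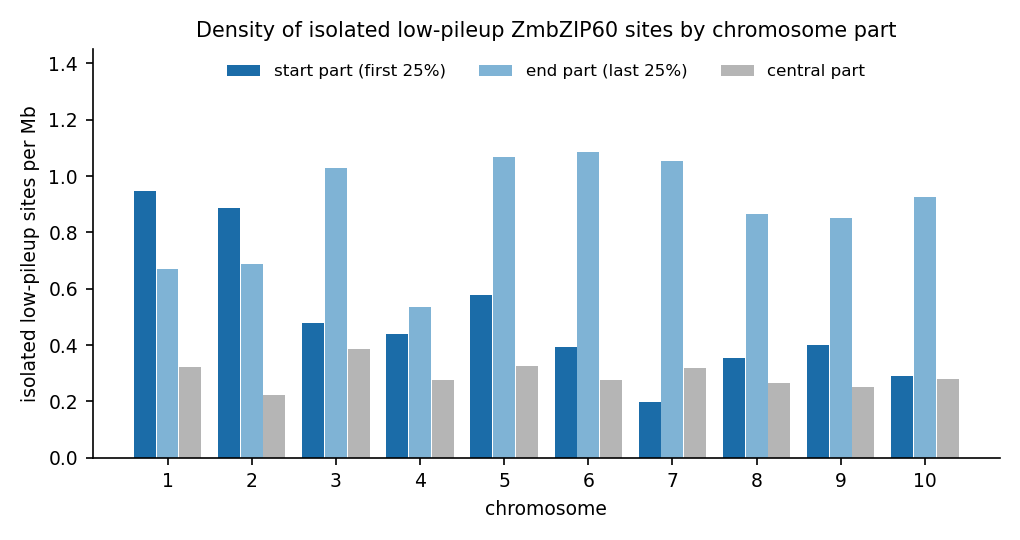
Isolated low-pileup ZmbZIP60 sites per Mb (y axis) on each chromosome (x axis), in the start part, the end part and the central part. The end part is the densest on chromosomes 3 to 10 and the start part on chromosomes 1 and 2, and the start part of chromosome 7 has the lowest bar at 0.198.

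The outermost members lay at varied distances from the ends. On chromosomes 1, 3, 5 and 8 the last member was also the last peak listed, so that it set the chromosome length used here and has no distance of its own. On the other chromosomes the last member ended between 616 kb (chromosome 4) and 2236 kb (chromosome 9) before the listed end. The one on chromosome 1, at 304374378 to 304374766, had 27 pull-down tags over 4.90 control tags and was among the strongest members by fold. The first member on chromosome 9 began at 320869, the nearest to a chromosome start, and had a pileup of 18 and a fold of 4.16. The first members of chromosomes 2 and 3 began at 482421 and 475621, whereas on chromosomes 6 and 7 the first member began only at 4401069 and 4279422.

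By the rule, members had no other ZmbZIP60 peak within 10000 bp, so some spacing between them was built in. The median distance from a member to its nearest ZmbZIP60 peak of any kind was 293888.5 bp. It was 485750 bp for the central isolated low-pileup sites and 476571.5 bp for isolated peaks of higher pileup. Members thus had a shorter median distance than either of these classes, which met the same spacing rule. The peaks of higher pileup were taken over whole chromosomes, with 254 of 458 in the outer parts. Position and pileup are therefore not separated in that comparison. Still, 563 of 730 members (77.1%) had no other peak within 100000 bp. The peak nearest to a member was another member for 508 (69.6%). It was an isolated peak of higher pileup for 150 (20.5%) and a peak of a cluster for 72 (9.86%). The outer parts held 730 members and 254 isolated peaks of higher pileup, so members were also the commoner kind of isolated peak there. These shares were not tested. Within the same outer part, neighbouring members were a median of 801685 bp apart over 710 pairs, and 66 pairs were closer than 100000 bp. The closest pair, on chromosome 3, consisted of 213665439 to 213665671, with a pileup of 19 and a fold of 5.29, and 213676248 to 213676521, with a pileup of 18 and a fold of 5.62, with 10576 bp between them. The next closest, on chromosome 7 with 14849 bp between them, joined a strong site at 169300085 to 169300871 (pileup 24, fold 8.87) with a weak one at 169315721 to 169315920 (pileup 12, fold 4.48). The widest stretch with no member lay in the start part of chromosome 3, between 32003276 and 47492481. The start part of chromosome 10 had the next widest, between 22057181 and 35971573. Stretches with no member can hold clustered or high-pileup peaks.

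At the summit, a typical member carried 16 pull-down tags over 6 control tags. Pileup ranged from 8 to 29 with quartiles of 14 and 20, and 545 members (74.7%) had fewer than 20. The control background ranged from 3.50 to 25 tags with quartiles of 5.16 and 7, against a genome mean of 3.50. Thus 54 members (7.40%) stood on 10 control tags or more and 5 on 20 or more. The median fold enrichment was 4.85, with quartiles of 4.22 and 5.84 and a range from 2.29 to 10.5, and 597 members (81.8%) had a fold of 4 or more. Pileup was limited by the rule and fold comes from the same contrast, so none of these values was tested. At such tag numbers single values are imprecise, since the 95% Poisson interval of 17 tags runs from 9.90 to 27.2.

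**Figure D3:**
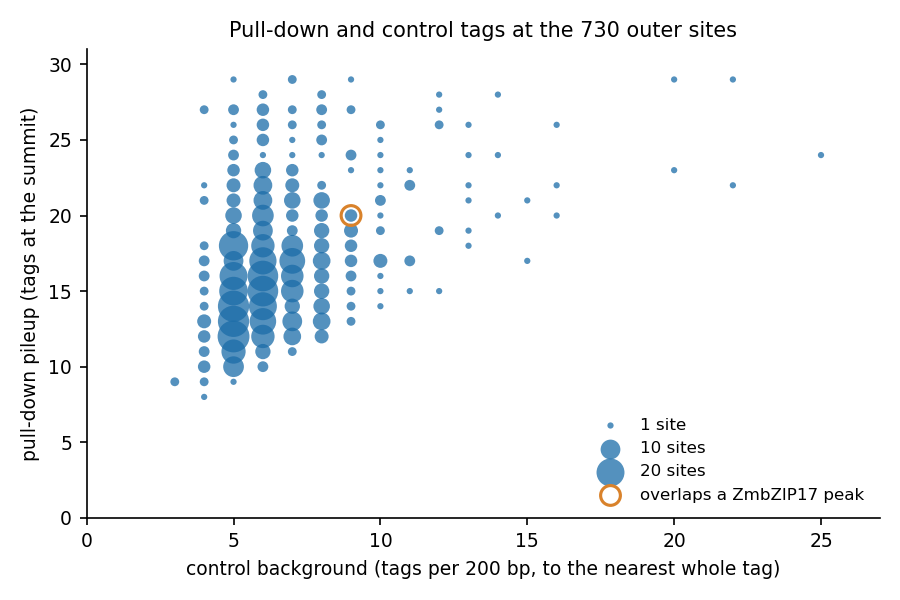
Pull-down pileup at the summit (y axis, tags) against the recovered control background (x axis, tags per 200 bp, rounded to whole tags) for the 730 members. Point area gives the number of sites, most of which sit between 10 and 20 pull-down tags over 5 to 8 control tags, and the lowest listed pileup goes up with the background. The ringed point holds the 1 member that overlaps a ZmbZIP17 peak.

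The lower edge of the cloud was set by the peak call. Among members with under 5 control tags the lowest pileup was 8 and the lowest fold 3.44. With 5 to under 6 control tags the lowest pileup was 9, with 6 to under 7 it was 10, and with 10 to under 15 it was 14, where the lowest fold was 2.78. Median folds went down with background. They were 5.29 under 5 control tags, 5.03 from 6 to under 7 and 4.31 from 8 to under 10. For the 10 members with 15 or more the median was 2.97. The pileup limit of the rule also bounds fold from above, more tightly at higher background. The highest fold was 10.5 under 5 control tags and 3.67 at 15 or more. Across members, fold had a Spearman rank correlation of 0.66 with pileup and -0.37 with control background (n = 730). These are descriptions, because fold is computed from both values.

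The control value used by the call differed in kind among members. MACS2 takes the highest of the control tags over 200 bp, the mean over windows of 1000 bp and 10000 bp, and the genome mean. For 391 members (53.6%) the recovered background was a whole tag number, as the 200 bp window gives. It was a multiple of 0.2, as the 1000 bp window gives, for a further 165 (22.6%), and a multiple of 0.02, as the 10000 bp window gives, for 172 (23.6%). Only 2 of the 730 stood on the genome mean itself. Wider windows can also give whole numbers, so the first count is an upper limit for the narrow window. The 10000 bp window can also give multiples of 0.2, so the third count is a lower limit for that window. Median fold was 4.50 in the first set with a median background of 7 tags, 5.09 in the second with 5.80, and 5.30 in the third with 5. In isolated peaks of pileup 30 or more, by comparison, 436 of 458 (95.2%) had a whole-number background.

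Most members were short. Their median length was 268.5 bp with quartiles of 221.25 and 347.75, 445 (61.0%) were at most 300 bp, and 96 (13.2%) were exactly 200 bp, the tag extension and the shortest length listed. The summit lay within 50 bp of the peak's middle in 514 (70.4%). Another 43 members (5.89%) were longer than 500 bp, with a median pileup of 18. The longest were a 1090 bp peak at chromosome 3, 189159009 to 189160098, with a pileup of 20 and a fold of 6.73, and a 1067 bp peak at chromosome 2, 1526459 to 1527525, with a pileup of 18 and a fold of 6.60. Length was only loosely tied to pileup, with a rank correlation of 0.24, and the median length was 258 bp at 8 to 11 tags, 249 bp at 12 to 14 and 322 bp at 25 to 29. These tallest members also had the highest median fold, 7.15, against 3.87 for the 50 members with 8 to 11 tags.

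The strongest members by fold lay on 4 chromosomes and had under 6 control tags each. With pileup kept under 30 by the rule, folds this high are possible only on a low background. The top one by fold, on chromosome 6 from 18385530 to 18386009, had 27 tags in the pull-down (95% Poisson interval 17.8 to 39.3) and a background of 4.22, giving a fold of 10.5. On chromosome 1, the peak from 8702828 to 8703139 also had 27 tags, on a background of 4.40, and a fold of 10.2. At chromosome 7, 170257621 to 170258173, the fold was 9.95 with 29 tags (interval 19.4 to 41.6) over 5.08 control tags, and its −log10 q of 20.3 was the highest of any member. The other two were the end-most peak of chromosome 1 named above, with a fold of 9.51, and a peak at chromosome 3, 186843623 to 186844076, with a fold of 9.21. Their Poisson intervals overlap widely, so the order among them is not resolved by counting error. A fold of 8 or more was found at 27 members (3.70%), on all 10 chromosomes. These were 13 of the 282 members in start parts and 14 of the 448 in end parts. They had 21 to 29 pull-down tags over 3.94 to 6.60 control tags, ranges that the pileup limit also bounds. The outermost 5% held 10 of these 27 members, and 207 of all 730 members.

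Ranked by −log10 q within each chromosome, the leading members of chromosomes 1, 3, 6 and 7 were peaks just described. On chromosome 2 the leading member was at 9540830 to 9541161, with 28 pull-down tags over 5.98 control tags and a fold of 8.60. On chromosome 4 it was at 13043789 to 13044019, with 22 tags over 3.94 control tags and a fold of 8.97. Chromosome 5 was led by 8692508 to 8692937, with 26 tags over 5.40 and a fold of 8.59, and chromosome 8 by 168308853 to 168309160, with 27 tags over 5.80 and a fold of 8.48. On chromosome 9 the peak at 155945803 to 155946153 led with 27 tags over 7 control tags and a fold of 7.41. The leader of chromosome 10, at 146238096 to 146238490, had 27 tags over 5.14 control tags and a fold of 9.21. All but those of chromosomes 3 and 6 lay within 10% of a chromosome end, where 384 of the 730 members lay. Leading members therefore had similar tag numbers, 22 to 29, on every chromosome, close to the pileup limit of the rule. In all, 104 members (14.2%) had a −log10 q of 10 or more, and they lay on all 10 chromosomes.

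The weakest members were of separate kinds. At chromosome 2, 16055815 to 16056076, the pileup was only 8 (95% Poisson interval 3.45 to 15.8) on a background of 4.08, the smallest pileup of any member, with a fold of 3.44 and a −log10 q of 1.38. Chromosome 6, 7213972 to 7214225, had 9 tags over 5 control tags and a fold of 3.35. The other three had more tags on a raised background: 17 over 15 at chromosome 3, 475621 to 475939 (fold 2.59, −log10 q 1.37, the lowest of all), 22 over 22 at chromosome 2, 44462776 to 44463096 (fold 2.36), and 24 over 25 at chromosome 3, 8740908 to 8741250 (fold 2.29). In tag terms the last pair had about as many control tags as pull-down tags, and their enrichment rests on the depth scaling. Under a −log10 q of 2 there were 27 members (3.70%), with a median pileup of 11 over a median of 7 control tags.

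The rule keeps pileup under 30 and the call lists none of these sites under 8 tags, which bounds pileup and the fold computed from it, so nothing about site strength along the chromosomes can be read from the members alone. Within these bounds, median folds by chromosome ran from 4.63 on chromosome 3 to 5.25 on chromosome 8, and median pileups from 15.5 to 17. By distance from the end, median folds were 4.82, 4.93, 5.03, 4.55 and 5.03 in the 5 successive steps, while the number of sites went down from 207 to 89. The rank correlation of distance with fold was -0.040 and with pileup -0.022 (n = 730). Taller isolated peaks at the same distances were left out by the rule and do not enter these values.

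Set against the 309 central sites chosen by the same pileup and spacing, the outer sites had similar values. Median pileup was 16 in the outer and 15 in the central sites, and median control background was 6 tags in both. Median fold was 4.85 (95% interval of the median 4.76 to 5.03) in the outer sites and 4.69 (4.55 to 4.77) in the central sites. A fold of 8 or more was listed at 27 of 730 outer sites (3.70%, interval 2.45 to 5.34) and 3 of 309 central sites (0.971%, interval 0.201 to 2.81). Median length was 268.5 bp in the outer and 262 bp in the central sites. These values come from the contrast that chose the sites and were not tested. Outer sites stood closer to their nearest neighbour, at a median of 293888.5 bp against 485750 bp for the central sites. A background that, of these windows, only the 10000 bp one can give was found at 23.6% of outer sites (interval 20.5 to 26.8). In central sites this was 16.5% (interval 12.5 to 21.1).

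**Figure D4:**
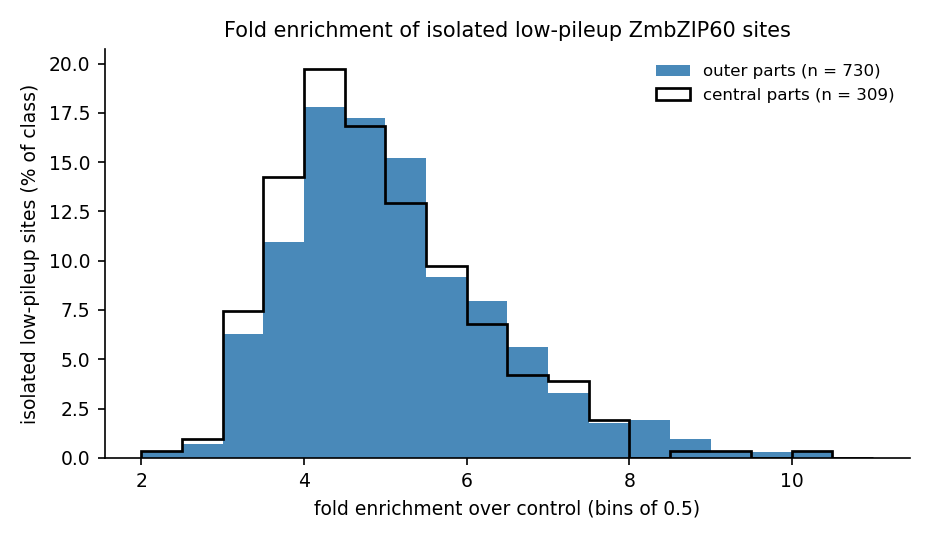
Fold enrichment (x axis, bins of 0.5) of isolated low-pileup ZmbZIP60 sites as a percent of each class (y axis), for the 730 outer sites (filled) and the 309 central sites (black outline). The distributions largely overlie each other, with medians of 4.85 and 4.69, and the outer sites have 27 members at a fold of 8 or more, the central sites 3.

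The outer share of isolated peaks differed by pileup, given here with no test because the rule used both measures. It was 65.0% for a pileup of 8 to 14, 73.3% for 15 to 19, 73.0% for 20 to 24 and 72.4% for 25 to 29, against 55.4% for 30 to 39 and 53.8% for 100 to 400. Of all 458 isolated peaks with a pileup of 30 or more, 254 (55.5%, interval 50.8 to 60.1) were outer ones. The 458 tall peaks had a median fold of 2.99, against 4.85 for the members. They mostly stood on much more control signal, with a median of 68 tags. Where they stood on under 20 control tags, 42 of 65 (64.6%, interval 51.8 to 76.1) were outer, against 725 of 1030 (70.4%, interval 67.5 to 73.2) for low-pileup peaks in the same range of background. At 20 control tags or more, 5 of 9 low-pileup peaks (55.6%, interval 21.2 to 86.3) were outer, against 212 of 393 tall ones (53.9%, interval 48.9 to 58.95). These intervals overlap, but the smaller classes held only 9 and 65 peaks, so the overlap decides nothing. Isolated peaks with a pileup of 30 to 39 had a median of 8 control tags, and 41 of 74 (interval 43.4 to 67.0) were outer. Background differed together with pileup between low-pileup and tall peaks, and the part of each in the outer share was not tested. Peaks in blocks of 5 or more within 10000 bp of each other had an outer share of 39.1%, and all chromosomal ZmbZIP60 peaks together one of 58.1%.

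**Figure D5:**
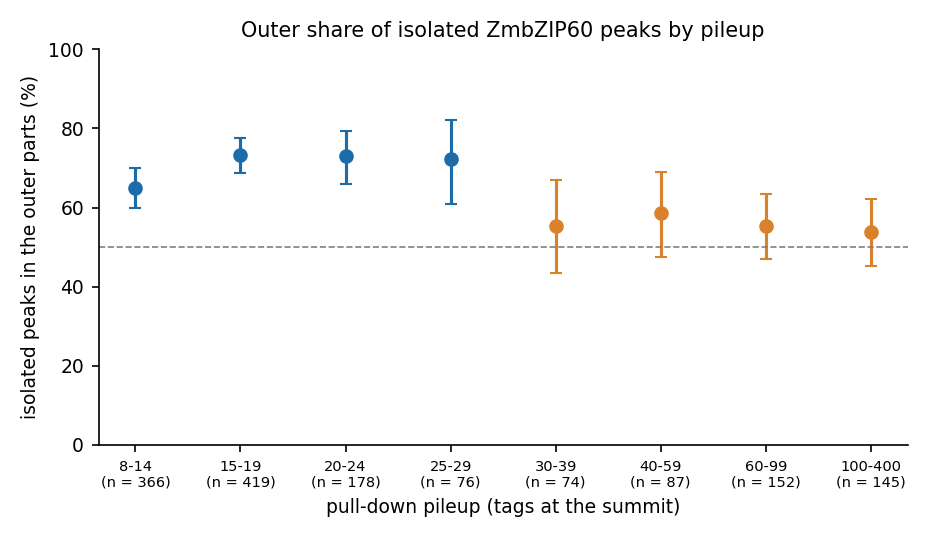
Percent of isolated ZmbZIP60 peaks that lay in the outer chromosome parts (y axis) by pull-down pileup (x axis, with the number of isolated peaks in each step). Bars are exact 95% binomial intervals, and the dashed line marks the share of length that the outer parts hold. Low-pileup steps (blue) lie between 65.0 and 73.3%, and taller steps (orange) between 53.8 and 58.6%.

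Values on both sides of each limit of the rule were compared as a description. In the outer parts, 12 isolated peaks with a pileup of 28 or 29 had a median fold of 6.95 and 14 with a pileup of 30 or 31 one of 9.17, over a median of 8 and 6 control tags. At the spacing limit, 4 members with 10399 to 10814 bp to the next peak had a median fold of 5.46, and 10 otherwise similar peaks with 8369 to 9015 bp had one of 5.22. At the position limit, 17 members between 24 and 25% from an end had a median fold of 5.03 and 18 central sites between 25 and 26% one of 4.70.

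The ZmbZIP17 list, which the rule did not use, had little in common with the members. ZmbZIP17 is a related bZIP factor that is anchored in the ER membrane and released by proteolysis under stress. Only 1 of the 730 members (0.137%, interval 0.00347 to 0.761) shared at least 1 bp with any of its 282 peaks, whereas 7.51% of all chromosomal ZmbZIP60 peaks did. That background includes clustered peaks, and among isolated peaks with a pileup of 30 or more the share was 19 of 458 (4.15%, interval 2.52 to 6.40). Only 94 of the 282 ZmbZIP17 peaks (33.3%) had their summit in the outer parts at all. Among the central low-pileup sites it was 2 of 309 (0.647%, interval 0.0785 to 2.32). The outer and central shares did not differ detectably (p = 0.212 by a two-sided exact test after Fisher, unadjusted because no other comparison was tested). With the pileup limit set at 35, the counts were 1 of 756 outer and 4 of 328 central sites and the same exact test gave p = 0.0314, so this comparison depends on very few sites. Both lists share the vector control.

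The shared site was at chromosome 1, 76055947 to 76056171, and lay 24.99% into the chromosome, at the very edge of the outer part. In the ZmbZIP60 list it had a pileup of 20 (95% Poisson interval 12.2 to 30.9) over 9 control tags, with a fold of 4.59. In the ZmbZIP17 list the peak at 76055951 to 76056254 had a scaled pileup of 37.7 over 10 control tags, with a fold of 3.52. The summits were 71 bp apart. The lists were scaled separately, so these folds do not compare the factors.

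Another 3 members had a ZmbZIP17 peak within 10000 bp without touching it. The nearest, at chromosome 1, 278687524 to 278687974, had 17 pull-down tags over 6 control tags and a fold of 5.32, and the ZmbZIP17 peak began 321 bp beyond its end with a fold of 3.82. At chromosome 4, 242132238 to 242132437, a member with 14 tags and a fold of 4.80 had a ZmbZIP17 peak 3766 bp away. At chromosome 2, 17761295 to 17761687, a member with 19 tags and a fold of 6.61 had one 8445 bp away. Over all members the median distance to the nearest ZmbZIP17 peak was 7799840.5 bp, and over the central sites 7772626 bp.

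At the background of the members the ZmbZIP17 call was able to list peaks. At 6 control tags it needed a scaled pileup of 20.2, or a fold of 3.02, and its highest possible pileup was 149. The ZmbZIP60 call needed 10 tags, or a fold of 3.25, at the same background. At 10 control tags the folds needed were 2.57 for ZmbZIP17 and 3.02 for ZmbZIP60. That the other members are missing from the ZmbZIP17 list therefore says that no such enrichment was listed there, at a fold scaled to its own library, and weaker ZmbZIP17 signal at these sites would not have been detectable.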

How the data were processed

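The 9 ChIP-seq libraries form 3 groups of 3. The submitters' processing notes name Trimmomatic 0.36, BWA, MACS2 and bedtools, with no settings. Per the file headers, libraries were merged by group and MACS2 2.1.0.20150420 compared each pull-down with the vector control, extending tags to 200 bp, keeping 1 tag per position and listing peaks at a q-value of 0.05 or less. In MACS2, pileup is a signal of extended tags, fold enrichment is the ratio to the local control, and −log10 p and −log10 q come from its Poisson test. The deposited forms of each list agreed for all 3042 and 282 peaks.

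Control background was recovered from the deposited fold, (pileup + 1)/(control + 1), divided by the depth scaling. Recomputed −log10 p lay within 0.5 of the deposited value for all 730 members. Every member's background matched a control window within 0.002 tags. Distance between peaks is the number of bases between their edges. Shares have exact (Clopper-Pearson) 95% intervals, those of medians come from order statistics, and all cover counting error only. The fold that a call needed was computed from the lowest −log10 p listed, 4.24 for ZmbZIP60 and 5.39 for ZmbZIP17. Nothing in the labels says whether replicates came from separate plants. Named sites were the 5 members highest in fold, the member highest in −log10 q on each chromosome, the 5 lowest in −log10 q and any that overlapped a ZmbZIP17 peak. Other sites (the outermost, closest and longest members and those near a ZmbZIP17 peak) were named after their values were seen. The members, rule and comparisons were chosen with earlier results of these data known. Planned motif, GC and gene comparisons were not run, since no genome of this build was used here. Python 3.11.15, numpy 2.4.6, pandas 2.3.3 and scipy 1.17.1 were used, and the spacing, overlap and background code was tested on simulated data.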

Additional observations from a re-analysis of the deposited data

How the results depend on the processing

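Of 63 values recomputed under other settings, 58 were close to the main ones, which means within 1.5 times for a count, within the 95% interval for a share or median, and on the same side of 0.05 with the same sign for the tested difference. The number of members ranged from 641 with outer parts of 20% at each end to 756 with a pileup limit of 35, and was 705 or 703 with a −log10 q of 2 or more required before or after the spacing rule. With these narrower parts the outer share was 61.7% and 0 members overlapped a ZmbZIP17 peak, since the shared site lies at the edge of the outer part and narrower parts hold less length. Without the 1 added to pileup and control, the median fold of the members was 6.49. Counting ZmbZIP17 peaks within 10000 bp gave 4 members. With a pileup limit of 35 the outer minus central difference in overlap was -1.09 percentage points and passed the test (two-sided Fisher's exact test, p = 0.0314, range over the alternatives 0.0314 to 0.507), where the main difference was -0.510. No paired analysis was possible because peaks were called on merged libraries, and for the same reason no replicate could be left out. With 8 to 29 tags per site, single folds are imprecise.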
